A study of Homo sapiens with 19 samples.

Results

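The promoter read-out of DNA elements paired with the APOBEC3F minimal promoter (pAPOBEC3F) was set against that of the same elements paired with the MYC minimal promoter (pMYC). Members were all elements named in the promoter tables of both minimal promoters, 2291 of the 3422 element names in the series. Under pAPOBEC3F 2703 elements were listed and under pMYC 2569. The authors tested 2279 of the shared elements in both tables, and these were compared. The other 12 had no authors' test in at least 1 table, where their largest signal value was 9.92.

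The data come from QUASARR-seq, a massively parallel reporter assay that counts barcoded RNA and plasmid DNA from a pooled library and reads promoter and enhancer activity of the same element from separate barcodes. K-562, an established human leukaemia cell line, received plasmids built in the vector pDEST-QUASARR-luc-gfp, in which elements were combined with pAPOBEC3F, pMYC or pGAPDH in 1 pool named set 2. For each technical replicate, 5 electroporations of 1000000 cells with 20 µg of plasmid were pooled and harvested after 6 h, and 4000000 cells went to RNA and 1000000 to DNA. Both groups therefore share their cells, their 2 RNA and 2 DNA promoter-barcode libraries and their sequencing runs. They differ in the minimal promoter and in the plasmids that carry it, and so in DNA reads. KSUAT0147.fwd, for example, had 6789 DNA reads under pAPOBEC3F and 216 under pMYC. Both replicates drew on the same plasmid pool, so effects of the single plasmids cannot be told apart from those of the minimal promoter.

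A minimal promoter is a short stretch around a gene's start of transcription that recruits the basal machinery and gives little RNA until a nearby element activates it. MYC encodes a transcription factor that drives growth and is strongly transcribed in leukaemia cells, and APOBEC3F encodes a cytidine deaminase that restricts retroviruses. RNA per DNA copy of the promoter barcode, as log2 RNA/DNA, measures how much transcript carrying that barcode a plasmid gives. Transcript with the enhancer barcode is counted apart. The position of the minimal promoter relative to the element and the barcodes is not given in the sources used here.

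Read totals, recovered from the value steps of each column, were 1679872 and 1802390 for RNA and 3428376 and 3536642 for DNA under pAPOBEC3F. Under pMYC they were 2116336 and 2360455 for RNA and 3802678 and 3886115 for DNA. A compared element had a median of 568 RNA reads under pAPOBEC3F and 860 under pMYC, summed over both replicates, and at least 29 DNA reads in every column. The sources used here do not say if molecular identifiers were used. These reads may therefore include PCR copies, and depth bounds counting error only. The labels give 2 technical replicates per biological replicate, and do not say which of these the 2 replicates are. Whether they came from separate cultures is not given in the sources used here. The p-values therefore rest on the spread between these libraries, which may be technical and is in large part pooled over elements.

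Element activity was ordered almost alike under both minimal promoters. For the mean of 2 replicates, pAPOBEC3F correlated with pMYC at r = 0.967 (Pearson) and rho = 0.944 (Spearman) across 2279 elements, a description over points that share libraries and depth. In single replicates r was 0.960 in both. Between replicates r was 0.987 within pAPOBEC3F and 0.983 within pMYC. The spread of activity was wider under pAPOBEC3F: the SD over elements was 1.49 and 1.46 in replicates 1 and 2, against 1.22 and 1.21 under pMYC, a ratio of 1.22 and 1.21.

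Against this common order, many elements differed in the size of their activity. Each table was normalized apart, so the difference of an element, pAPOBEC3F minus pMYC in log2 RNA/DNA, was taken per replicate and expressed relative to the median of all 2279 elements; a log2 difference of 1 is a 2-fold ratio. The limma test of the 2 differences, with Benjamini-Hochberg adjustment over all elements, called 1075 elements at an adjusted p under 0.05, 47.2% of those tested. Of these, 608 were higher under pAPOBEC3F (26.7%) and 467 lower (20.5%), while 1204 were not called. With 2 differences per element, limma draws the spread of each element towards that of other elements of similar depth. The test had 21.1 degrees of freedom, most of them from other elements. Every SE given with n = 2 is this moderated SE, which can be smaller or larger than the 2 replicates alone would give. The median called difference was 0.51 among higher and -0.41 among lower elements, beside a median SD of 0.11 between the replicates of an element. Differences ranged from -1.81 to 2.55, the middle of the distribution from the lower to the upper quartile spanned -0.27 to 0.32, and 39 higher and 13 lower elements were called with at least 2-fold. The difference was shared between replicates, with r of 0.746 across elements. The 3 called elements nearest the threshold had absolute differences of 0.24 to 0.93, and the 3 nearest outside it 0.20 to 0.61.

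The count in each direction depended on the zero point. On the deposited scale without centring the median difference was 0.13 and 0.09 in replicates 1 and 2, and 791 elements were higher and 287 lower, so that 73.4% of the calls were higher against 56.6% with centring. With the zero at the 24 elements whose names are a bare number, 805 were higher and 137 lower (85.5%). In reads of the shared libraries, with no scaling by the authors, the median was -0.46 and -0.52, and 134 were higher and 1477 lower (8.32%). Leaving out a library also moved the lower calls: without DNA replicate 1 or DNA replicate 2 they numbered 179 and 174, and without RNA replicate 1 or RNA replicate 2 they numbered 701 and 702. Higher calls numbered 405 without DNA replicate 2.

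**Figure D1:**
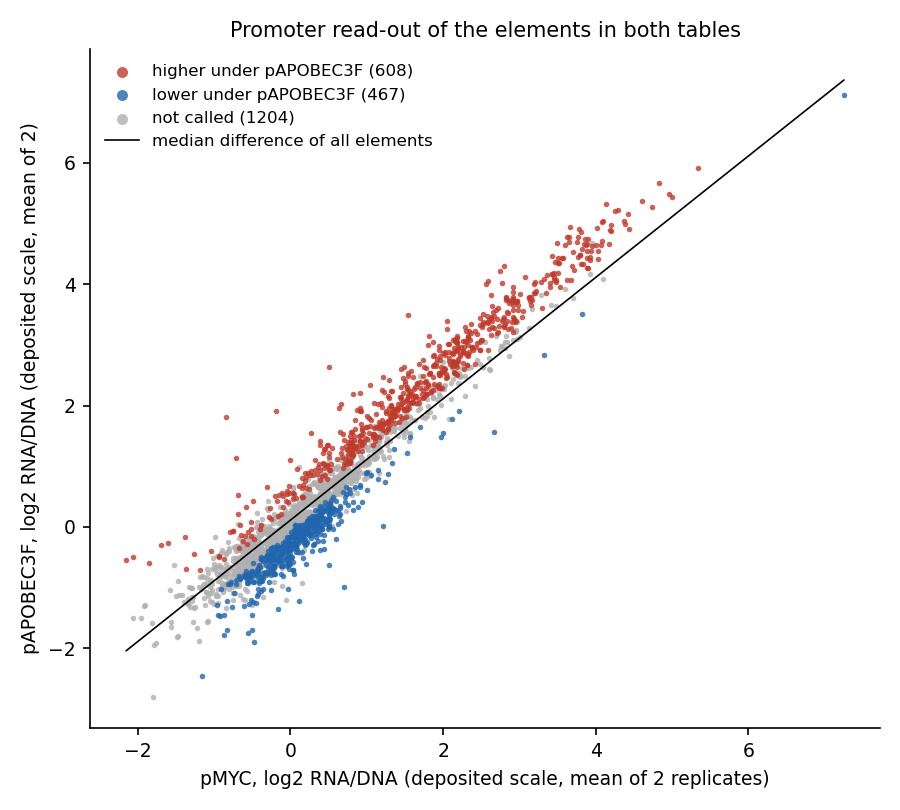
Mean log2 RNA/DNA on the deposited scale under pAPOBEC3F (vertical axis) and pMYC (horizontal axis), 1 point per element, 2279 in all; red points were called higher under pAPOBEC3F (608), blue points lower (467) and grey points were not called (1204). The line marks the median difference of all elements. Above a level of about 2 most called points lie above the line, and around 0 and below most lie under it.

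Elements with strong promoter activity were relatively higher under pAPOBEC3F and weak ones relatively lower. Elements were divided into 5 bins of equal size, from bin 1 (weakest) to bin 5 (most active), by their mean level in 1 replicate. The median difference was read in the other replicate. The calls counted per bin used both replicates, including the one that formed the bins. In bin 5 the median difference was 0.49 with replicate 2 and 0.50 with replicate 1, and 362 of the 456 elements ranked by replicate 1 were called higher and 7 lower. In bin 4 the median was 0.17 and 0.19. In bins 1, 2 and 3 it lay between -0.14 and -0.23, with 17, 19 and 32 higher calls and 111, 161 and 160 lower calls among elements ranked by replicate 1. The same held when 1074 elements were divided by their pMYC level in set 1, which was measured in other libraries of another plasmid pool. From bin 1 to bin 5 the medians were then -0.24, -0.23, -0.22, 0.11 and 0.51, with 172 higher and 2 lower calls among the 215 most active elements.

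In reads of the shared libraries the strong elements gave nearly the same RNA per DNA under both minimal promoters, and the weak ones gave less under pAPOBEC3F. In bin 5 the median was 1.40 RNA reads per DNA read under pAPOBEC3F and 1.31 under pMYC in replicate 1, and 1.41 under each in replicate 2. Bin 1 had 0.105 under pAPOBEC3F and 0.168 under pMYC in replicate 1, and 0.114 and 0.189 in replicate 2. In bin 1, 5.48% of the elements were above their pMYC value in replicate 1 and 4.82% in replicate 2, against 56.6% and 46.5% in bin 5. Over all elements the median was 0.199 RNA reads per DNA read under pAPOBEC3F and 0.303 under pMYC in replicate 1, and 0.215 and 0.342 in replicate 2. Both tables come from the same libraries, so library depth cancels in this comparison.

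**Figure D2:**
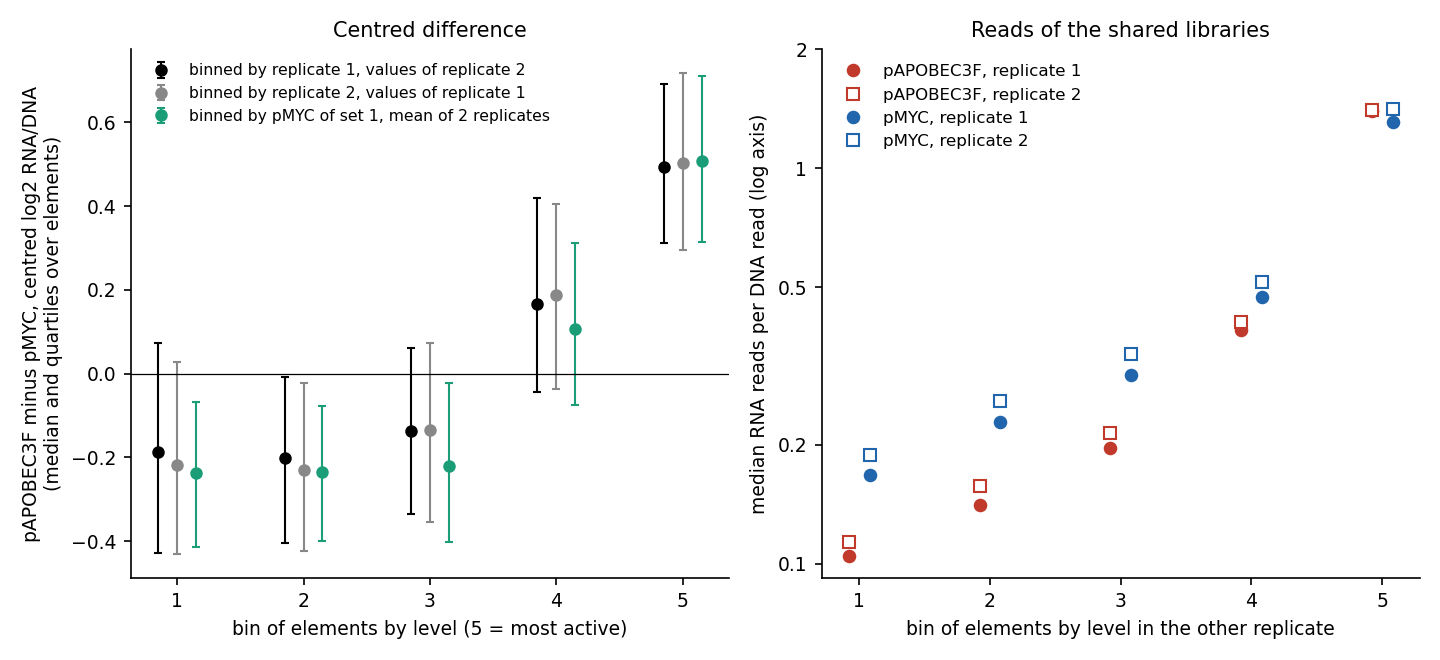
Left, median and quartiles over elements of the centred log2 difference, pAPOBEC3F minus pMYC, by activity bin; bins were formed from the other replicate (black and grey) or from pMYC of set 1 (green). Right, median RNA reads per DNA read in each bin on a log axis, for pAPOBEC3F (red) and pMYC (blue), as filled circles for replicate 1 and open squares for replicate 2. The centred medians lie below 0 in bins 1 to 3 and near 0.5 in bin 5, and the read ratios of both minimal promoters meet in bin 5.

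When both tables were first scaled to the same spread, an alternative chosen after seeing the data, 350 elements were higher (15.4% of those tested) and 369 lower (16.2%). Of the 608 elements called higher without this scaling, 278 were still higher and 43 were lower, and of the 467 lower ones 268 were still lower and 0 were higher. Percentile ranks, which also ignore the spread, gave the class values below. The scaled counts are those of elements that departed from 1 straight line between the minimal promoters, set by the ratio of their SDs. The highest elements in both tables, given below, were all called lower after this scaling. How well a straight line holds over the range of activity was not tested.

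Classes of element names, read from the letters before the running number, followed their activity. What the letters stand for is not given in the sources used here. KSSAT elements had a median level of 3.30 under pAPOBEC3F and 2.60 under pMYC, and 74 of 106 were higher and 4 lower (69.8% and 3.77%), with a median difference of 0.51, a range of -0.67 to 1.84 and a median that turned to -0.03 with both tables scaled to the same spread. KSUAT elements were similar, with median levels of 2.64 and 1.99 under pAPOBEC3F and pMYC, 65 of 91 higher, 4 lower and a median difference of 0.43 that turned to -0.06 in uncentred reads of the shared libraries. Of TRE6_HRHP elements 23 of 40 were higher and 2 lower (median 0.50). Of TRE6_HPHP elements 14 of 26 were higher and 1 lower, with a median of 0.41 that turned to -0.08 in uncentred reads of the shared libraries. The median over all elements was 0 by construction, and 26.7% of all elements were higher and 20.5% lower.

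The weak classes lay on the other side. KNGUT elements had a median level of -0.54 under pAPOBEC3F and -0.34 under pMYC, and 1 of 123 was higher and 54 lower (43.9%), with a median difference of -0.32. In KNGAT 2 of 103 were higher and 41 lower (median -0.31), and in KNGAE 1 of 138 was higher and 46 lower (median -0.26). Of the 24 elements whose names are a bare number, 1 was higher and 7 lower (median -0.23). TRE5NGCC had 7 of 179 higher and 35 lower (median -0.16), and its median turned to 0.01 with both tables scaled to the same spread and with the zero at the elements whose names are a bare number. The classes KUUUT, KSUUT and TRE6_020S, of middle level, had medians of 0.00, -0.01 and -0.02.

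Scaling and ranks removed most of the excess of calls in 1 direction from some classes and left it in others. With both tables scaled to the same spread, KSSAT had 22 higher and 25 lower calls, and its median shift of percentile rank was 0 points. KSUAT moved to 0.05 and TRE6_HRHP to 0.09, with median rank shifts of 0.39 and 0.24 points, and TRE6_HPHP to 0.19, with 4 higher and 5 lower calls and a rank shift of 0.88 points. Of the weak classes, TRE5NGCC then had 21 higher and 19 lower calls and a rank shift of 0.29 points, and the elements whose names are a bare number were at -0.03, with 2 higher and 7 lower calls and a rank shift of -1.10 points. KNGUT stayed below 0 at -0.14, with 5 higher and 31 lower calls and a median rank shift of -4.10 points. KNGAT and KNGAE were both at -0.09, with rank shifts of -2.74 and -1.99 points. TRE5SPNN, a class of 22 elements that spans low and high levels, was at 0.36 unscaled and 0.32 scaled, with 10 higher and 2 lower calls unscaled and a rank shift of 3.82 points; in uncentred reads its median turned to -0.13.

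**Figure D3:**
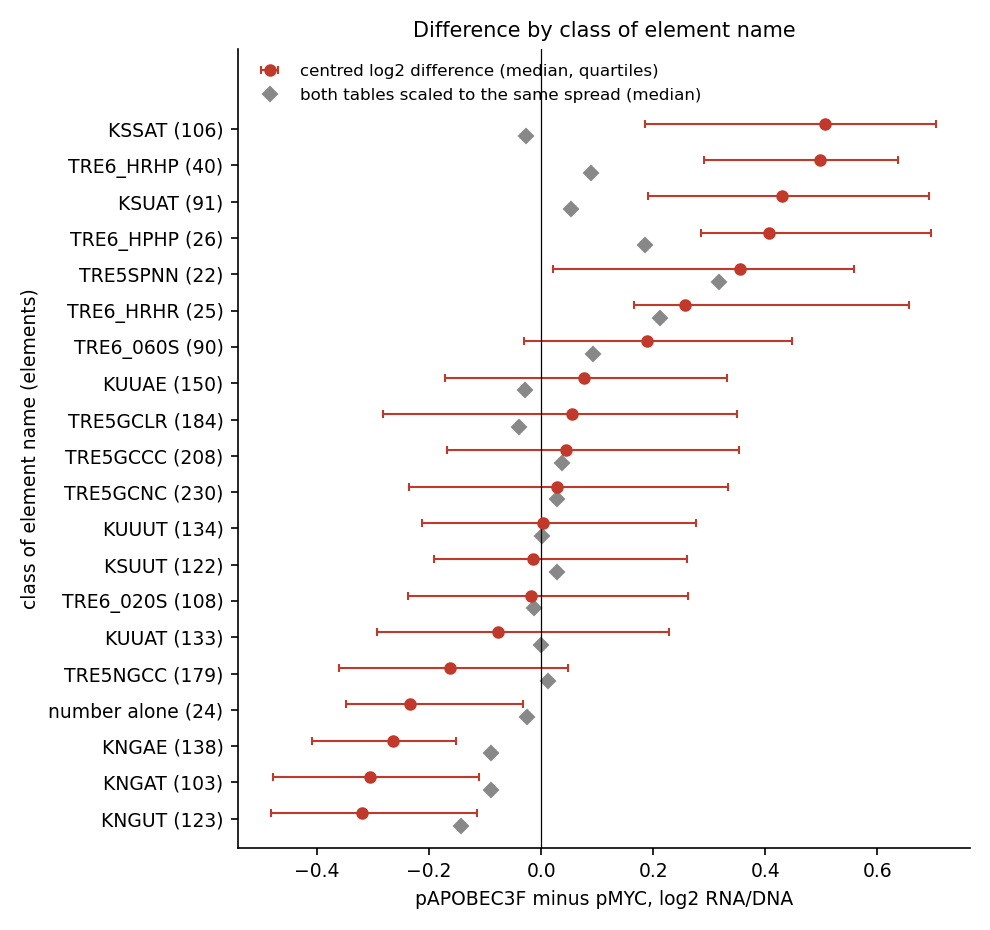
Median centred log2 difference, pAPOBEC3F minus pMYC, for the 20 name classes of at least 20 elements, with bars from the lower to the upper quartile (red), and the median after both tables were scaled to the same spread (grey diamonds). The medians run from 0.51 in KSSAT to -0.32 in KNGUT; scaled, the KSSAT, KUUAE and TRE5GCLR medians turn below 0 and the KSUUT, KUUAT and TRE5NGCC medians above 0.

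Single elements departed much further. KNGAT0105.fwd had a log2 RNA/DNA of 1.95 and 1.68 under pAPOBEC3F in replicates 1 and 2, against -0.86 and -0.82 under pMYC. Its replicates did not overlap, and the centred difference was 2.55 ± 0.21 (SE, n = 2; limma adjusted p 2.29e-09), with a percentile rank of 78.2 under pAPOBEC3F and 5.81 under pMYC. It rested on 628 RNA reads under pAPOBEC3F and 92 under pMYC. It and KNGAT0110.rev were the 2 of 103 elements of their class that were higher. Under pGAPDH it had -0.84 and -0.86, and with pMYC in set 1 -0.69 and -0.60, so the pAPOBEC3F values alone were above 0.

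KSUAT0147.fwd had 1.91 and 1.92 under pAPOBEC3F, against -0.63 and 0.24 under pMYC. The difference was 2.00 ± 0.17 (moderated SE, n = 2), with a limma adjusted p of 5.04e-09. It was 2.40 in replicate 1 and 1.59 in replicate 2, an SD of 0.57 that the moderated SE does not show. The pMYC replicates, from 56 RNA reads in all, lay further apart than those of pAPOBEC3F. With pMYC in set 1 the same element had 1.78 and 1.74, near its pAPOBEC3F values. KSSAT0026.fwd likewise had 3.43 and 3.56 under pAPOBEC3F, against 1.51 and 1.57 under pMYC, and 4.57 and 4.42 with pMYC in set 1. Its difference was 1.84 ± 0.11 (SE, n = 2; limma adjusted p 2.66e-11), from 1368 RNA reads under pAPOBEC3F and 1333 under pMYC. For both elements the 2 pMYC measurements differed more from each other than the set 1 measurement did from pAPOBEC3F.

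TRE5SPNN0038.fwd had 2.84 and 2.44 under pAPOBEC3F, against 0.22 and 0.81 under pMYC, a difference of 2.02 ± 0.30 (SE, n = 2; limma adjusted p 1.35e-05). TRE6_HPHP0055.rev had 1.48 and 0.80 under pAPOBEC3F, against -0.45 and -0.99 under pMYC, a difference of 1.74 ± 0.33 (SE, n = 2; limma adjusted p 2.07e-04). Its other orientation was at 0.32 and was not called (limma adjusted p 0.159). The remaining large rises were of elements either active under both minimal promoters or weak under both. TRE5SPNN0002.rev, KSUUT0021.rev, KSUAT0051.rev and KSSAT0049.rev averaged between 4.01 and 4.30 under pAPOBEC3F and between 2.57 and 2.79 under pMYC, with differences of 1.39, 1.36, 1.36 and 1.33. With both tables scaled to the same spread these were 0.81, 0.78, 0.81 and 0.79, and in uncentred reads 0.90, 0.87, 0.87 and 0.84.

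KUUAE0093.fwd and KUUAT0124.fwd averaged -0.54 and -0.50 under pAPOBEC3F and -2.15 and -2.06 under pMYC, where they had 42 and 11 RNA reads. Their differences were 1.50 ± 0.24 and 1.45 ± 0.55 (SE, n = 2 each), with limma adjusted p-values of 2.26e-05 and 0.0362. KUUAT0124.fwd lost its call in uncentred reads (0.96), without DNA replicate 1 (1.14) or DNA replicate 2 (1.78) and with 1 element per locus (1.44), with limma adjusted p-values of 0.133, 0.297, 0.0813 and 0.0695. With pMYC in set 1 they averaged -0.15 and -0.05, above both set 2 values. TRE5NGCC0132.fwd differed by 1.28 ± 0.34 (SE, n = 2; limma adjusted p 0.00387), with 0.60 in replicate 1 and 1.96 in replicate 2, and had 16 RNA reads under pMYC. It was at 1.97 without RNA replicate 1 and 0.59 without RNA replicate 2, and lost its call without DNA replicate 1 or DNA replicate 2 (limma adjusted p 0.0591 and 0.0540). The 39 elements called higher with at least 2-fold had a median of 1023 RNA reads under pAPOBEC3F and 693 under pMYC.

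Among lower elements TRE5SPNN0001.fwd stood first. It had -1.10 and -0.89 under pAPOBEC3F, against 0.64 and 0.77 under pMYC. The difference was -1.81 ± 0.12 (SE, n = 2; limma adjusted p 4.92e-11), the replicates did not overlap, and its percentile rank was 5.00 under pAPOBEC3F and 65.9 under pMYC. Under pGAPDH it had -0.38 and -0.41. It had 138 RNA reads under pAPOBEC3F and 1909 under pMYC. The class TRE5SPNN thus held an element at each end, TRE5SPNN0038.fwd being the second largest rise.

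TRE6_020S0051.rev had 0.06 and -0.02 under pAPOBEC3F, against 1.14 and 1.27 under pMYC, and differed by -1.30 ± 0.16 (SE, n = 2; limma adjusted p 6.00e-07). TRE5GCCC0081.rev was the most active of the 12 largest falls, with 1.63 and 1.48 under pAPOBEC3F, against 2.51 and 2.82 under pMYC, and differed by -1.22 ± 0.19 (SE, n = 2; limma adjusted p 1.49e-05). KNGUT0084.fwd had -0.43 and -0.83 under pAPOBEC3F, against 0.53 and 0.48 under pMYC, 0.45 and 0.55 under pGAPDH and 0.50 and 0.19 with pMYC in set 1. In this element pAPOBEC3F stood apart from 3 tables that lay close together, and the difference was -1.24 ± 0.14 (SE, n = 2; limma adjusted p 2.71e-07).

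The other falls of this group averaged between -2.45 and -1.01 under pAPOBEC3F, 6 of them from 38 or fewer RNA reads. The element 54773.rev averaged -1.90 under pAPOBEC3F and -0.48 under pMYC, with 35 and 746 RNA reads, and differed by -1.53 ± 0.19 (SE, n = 2; limma adjusted p 7.42e-07). TRE5GCLR0122.rev, TRE5SPNL0017.fwd, KUUAT0109.fwd, KNGAT0154.rev and KUUAT0084.rev had 16 to 38 RNA reads under pAPOBEC3F and 87 to 977 under pMYC, and differed by -1.44, -1.40, -1.31, -1.30 and -1.30. TRE5SPNL0017.fwd and KNGAT0154.rev lost their calls without DNA replicate 1 (limma adjusted p 0.114 and 0.131), without DNA replicate 2 (0.0516 and 0.123) and with both tables scaled to the same spread (-0.95 and -0.99). KNGAT0063.rev and KNGAE0099.fwd, with 115 and 601 RNA reads under pAPOBEC3F and 333 and 263 under pMYC, differed by -1.10 and -1.06. The median of the 13 elements lower by at least 2-fold was 68 RNA reads under pAPOBEC3F and 416 under pMYC.

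**Figure D4:**
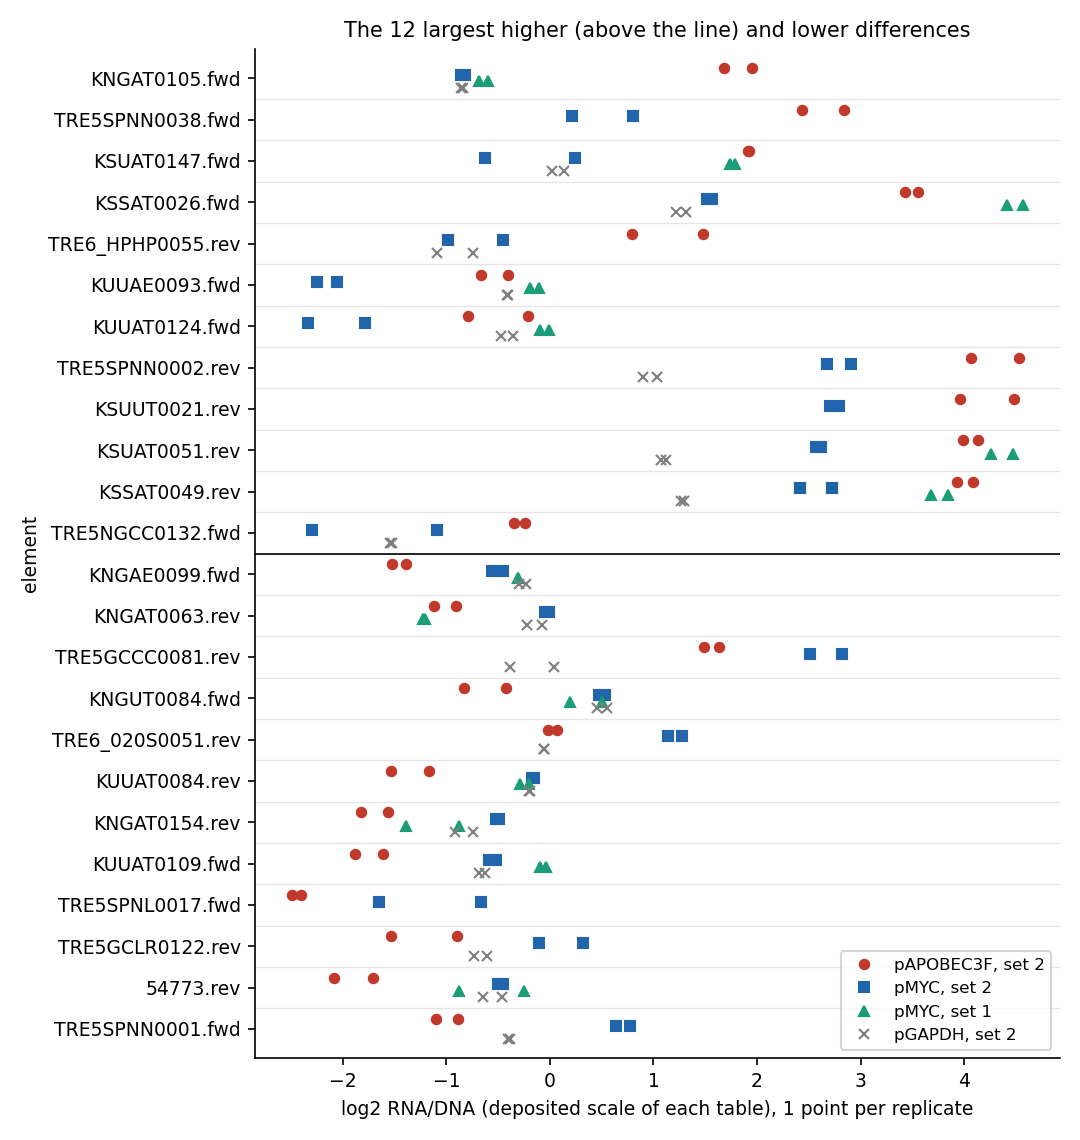
Log2 RNA/DNA of the 12 elements with the largest called rise and the 12 with the largest called fall, 1 element per locus and 1 point per replicate, on the deposited scale of each table: pAPOBEC3F (red circles) above pMYC of set 2 (blue squares), pMYC of set 1 (green triangles) and pGAPDH (grey crosses). For KNGAT0105.fwd the pMYC, set 1 and pGAPDH points lie below 0 and the pAPOBEC3F points above 1.6; for KSUAT0147.fwd and KSSAT0026.fwd the set 1 points lie nearer pAPOBEC3F than pMYC of set 2.

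In all 24 of these elements the replicates of pAPOBEC3F and pMYC did not overlap. They were chosen for large called differences of 1 sign in both replicates, which favours this. The set 1 table gives a second measurement of pMYC for 7 of these 12 rises and 7 of these 12 falls. By percentile rank over the 1074 elements in all 3 tables, set 1 lay nearer pAPOBEC3F than pMYC of set 2 for 6 of the 7 rises and for 2 of the 7 falls. KSUAT0147.fwd stood at percentile 80.0 under pAPOBEC3F and 31.1 under pMYC, and at 77.7 with pMYC in set 1. KUUAE0093.fwd stood at 20.8 and 0.0466, and at 29.7 in set 1, while KNGAT0105.fwd stood at 79.2 and 6.28, and at 6.75 in set 1. Among all elements in set 1, the share nearer pAPOBEC3F was 55.8% of 260 called higher, 58.3% of 266 called lower and 52.9% of 548 not called. These elements were chosen for a wide gap between the set 2 tables, so the nearness is a description, and the part that the measurement of pMYC in set 2 has in the gap was not tested.

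Across these 1074 elements, pAPOBEC3F correlated with pMYC of set 1 at r = 0.982 and pMYC of set 2 with pMYC of set 1 at r = 0.970, as a description over elements that share a plasmid design. The SD over the same elements was 1.52 under pAPOBEC3F, 1.24 under pMYC of set 2 and 1.43 under pMYC of set 1, so the ratio to pAPOBEC3F was 1.23 in set 2 and 1.06 in set 1. The wider spread under pAPOBEC3F was thus smaller against pMYC of the other pool, and the sets were normalized apart.

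By percentile rank the called elements that moved up most were KNGAT0105.fwd (72.4 points), TRE6_HPHP0055.rev (57.6), KSUAT0147.fwd (49.6) and TRE6_020S0056.fwd (48.8). Those that moved down most were TRE5SPNN0001.fwd (-60.9), KNGUT0084.fwd (-45.4), TRE5GCLR0122.rev (-39.1) and TRE6_020S0051.rev (-33.4). TRE6_020S0056.fwd had 0.66 and 0.39 under pAPOBEC3F, against -0.78 and -0.60 under pMYC, and differed by 1.10 ± 0.28 (SE, n = 2; limma adjusted p 0.00291). It lost its call in uncentred reads (0.61) and without DNA replicate 1 or DNA replicate 2 (limma adjusted p 0.0548, 0.0592 and 0.0694). All 8 kept their direction with both tables scaled to the same spread.

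The 5 elements with the highest mean percentile rank in both tables were chosen for it, so that small rank shifts follow from the choice. TRE5GCLR0189.rev was first in both tables and both replicates, with 7.31 and 6.91 under pAPOBEC3F, against 7.38 and 7.13 under pMYC. Its centred difference was -0.25 ± 0.10 (SE, n = 2; limma adjusted p 0.0395), and the uncentred replicates of the minimal promoters overlapped. This call was lost on the deposited scale (-0.14), with the zero at the elements whose names are a bare number (-0.08), without the replicate block (-0.24) and without DNA replicate 1 (-0.29) or DNA replicate 2 (-0.20). The limma adjusted p-values were then 0.291, 0.691, 0.0524, 0.195 and 0.402. With both tables scaled to the same spread it was at -1.56, and in uncentred reads at -0.74. RSV.fwd, KSSAT0004.rev, KSSAT0024.rev and TRE5GCLR0170.fwd differed by 0.73, 0.46, 0.41 and 0.32, and turned to -0.20, -0.54, -0.51 and -0.60 with both tables scaled to the same spread. In uncentred reads of the shared libraries RSV.fwd was at 0.24 and the other 3 turned to -0.03, -0.08 and -0.17.

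Whether RNA lay above or below DNA was mostly alike under both minimal promoters. The zero of each deposited scale is the authors' own. In the authors' deposited table of each minimal promoter, RNA was above DNA at an adjusted p under 0.05 for 1069 elements under both and below DNA for 528 under both. By the authors' deposited table of each, another 12 elements were above under pAPOBEC3F and below under pMYC, and 12 were the reverse. All 24 were called in the matching direction in the difference, which follows largely from choosing them by opposite calls in the same libraries. KNGAT0105.fwd, TRE6_HPHP0055.rev and TRE6_020S0056.fwd were among the first 12, and TRE5SPNN0001.fwd and KNGUT0084.fwd among the second. A larger group was called in 1 table only: in the authors' deposited tables, 67 elements were above and 154 below under pAPOBEC3F with no call under pMYC, and 124 were above and 87 below under pMYC with no call under pAPOBEC3F.

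Whether both orientations of a locus differed alike was asked at 945 loci. Both were called higher at 155 and both lower at 79, while 28 were called in opposite directions, 387 had 1 orientation called and 296 neither. Over all 2279 elements, 26.7% were called higher and 20.5% lower. The difference of the fwd element correlated with that of the rev element at r = 0.478 across loci, which share libraries. The limma test of fwd minus rev called 121 loci, 12.8% of those tested. At KNGAT0110 the rev element had -0.61 and -0.59 under pAPOBEC3F, against -1.84 and -1.87 under pMYC, and the fwd element had -1.12 and -0.998 under pAPOBEC3F, against -0.53 and -0.24 under pMYC. The rev and fwd differences were 1.14 and -0.79, and fwd minus rev was -1.93 ± 0.20 (SE, n = 2; limma adjusted p 0.00135). In uncentred reads the rev and fwd differences were 0.65 and -1.28, and the fwd element lost its call without DNA replicate 1 (limma adjusted p 0.0531). With pMYC in set 1 the rev element had -0.18 and -0.41, nearer its pAPOBEC3F values than those of pMYC in set 2. The fwd element had -0.22 and -0.15 there, nearer those of pMYC in set 2.

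At KSUAT0147 the fwd element carried the difference: fwd minus rev was 1.92 ± 0.23 (SE, n = 2; limma adjusted p 0.00211), and the rev element was at 0.08 and not called (limma adjusted p 0.599). With pMYC in set 1 KSUAT0147.fwd averaged 1.76, against -0.19 with pMYC in set 2 and 1.92 under pAPOBEC3F. At KUUAE0093 the fwd element was at 1.50 and the rev element at -0.41, both called, and fwd minus rev was 1.91 ± 0.24 (SE, n = 2; limma adjusted p 0.00213). KUUAE0093.fwd averaged -0.15 with pMYC in set 1, against -2.15 with pMYC in set 2 and -0.54 under pAPOBEC3F. The rev call was lost with the zero at the elements whose names are a bare number (-0.23) and without DNA replicate 1 (-0.38) or DNA replicate 2 (-0.41), with limma adjusted p-values of 0.210, 0.144 and 0.122, and without RNA replicate 1 the rev difference was -0.26. TRE5GCLR0122 and TRE5GCCC0038 had fwd minus rev of 1.66 ± 0.35 and 1.55 ± 0.40 (SE, n = 2 each), with limma adjusted p-values of 0.0217 and 0.0408. In both the fwd difference, 0.23 and 0.56, was not called and the rev difference, -1.44 and -0.99, was. The call of TRE5GCCC0038.rev was lost without the replicate block (-0.98), without RNA replicate 2 (-0.40) and without DNA replicate 1 (-0.82) or DNA replicate 2 (-1.13), with limma adjusted p-values of 0.0882, 0.0675, 0.245 and 0.0930. It was at -1.59 without RNA replicate 1, and with both tables scaled to the same spread it was at -0.64 and not called. In TRE5GCCC0038.fwd the 2 replicates were 1.12 and 0.00. Under pAPOBEC3F few RNA reads lay behind these loci, 43 for TRE5GCCC0038.fwd, 18 for TRE5GCCC0038.rev and 28 for TRE5GCLR0122.rev, against 510 for TRE5GCLR0122.fwd.

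The enhancer read-out of the same plasmids, from other barcodes and libraries, showed little of this difference. The same limma test called 1 of 2279 elements (0.0439%), with 249 at an unadjusted p under 0.05. TRE6_HRHR0016.fwd, the called element, was higher under pAPOBEC3F by 1.61 and 1.50 in replicates 1 and 2 (1.56 ± 0.22, SE; limma adjusted p 0.0152). As a promoter it was higher by 0.40 ± 0.09 (SE, n = 2; limma adjusted p 0.00129). It is 1 of 608 elements higher as promoters and the 1 called as an enhancer.

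Median enhancer differences were -0.01 for the 605 elements higher as promoters, -0.03 for the 467 lower ones and 0.03 for the 1196 not called. Of these 46.8%, 43.9% and 54.0% were above 0. Promoter and enhancer differences correlated at r = 0.074 across 2268 elements. The enhancer difference had a median SD of 0.21 between replicates, and its replicates correlated at r = 0.186, against 0.746 for the promoter difference. Enhancer libraries held 200722 and 217209 RNA reads under pAPOBEC3F and 409486 and 434897 under pMYC. The wider spread between replicates at this depth limits which enhancer differences could be detected.

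The promoter difference minus the enhancer difference, a test added after the data were seen, was called for 300 of 2268 elements (13.2%), 221 above 0 and 79 below. KSUAT0051.rev was higher as a promoter by 1.39 and 1.33, and its enhancer differences were -0.27 and -0.36. TRE5SPNN0001.fwd was lower as a promoter by 1.87 and 1.75, and its enhancer differences were 0.11 and 0.16. In both elements the replicates of the 2 read-outs did not overlap.

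**Figure D5:**
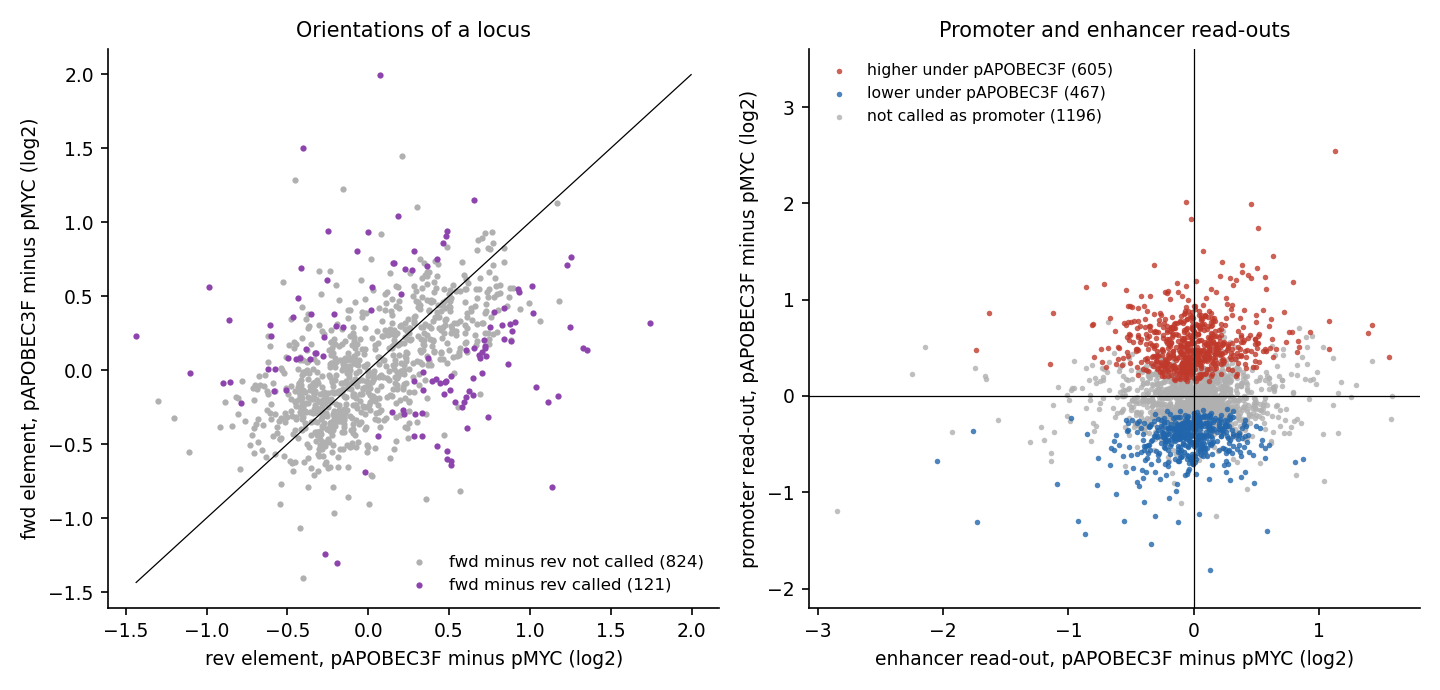
Left, centred log2 difference, pAPOBEC3F minus pMYC, of the fwd and rev elements at 945 loci; purple points are the 121 loci whose orientations were called different, and the line marks equal differences. Right, the promoter difference against the enhancer difference of 2268 elements, red for those higher under pAPOBEC3F as promoters (605), blue for lower (467) and grey for not called (1196). The red and blue clouds are both centred near an enhancer difference of 0.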

How the data were processed

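Reporter barcodes of K-562 cells were sequenced from RNA and DNA. The tools fastp, edgeR and limma and the build hg38 are named, without their roles, per the submitters' processing notes. How barcodes were matched and counted is not given in the sources used here. The deposited tables, 1 per minimal promoter, hold signal values of 2 RNA and 2 DNA libraries, whose scaling the headers do not name. Within every signal column used, 100% of the deposited values were whole multiples of 1 step (tolerance 0.001), taken as 1 read. The step was sought over all values of a column: taking the smallest value as 1 read did not give whole reads, and all read counts given are recovered values. The deposited log2 fold changes (RNA over DNA) and p-values, whose column names are those of limma per the file headers, served for membership and for the authors' calls.

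For each replicate, log2 RNA/DNA was computed with 0.5 reads added, and lay within 0.0236 of the authors' log2 fold change after averaging. The difference was pAPOBEC3F minus pMYC, centred on the median of all elements, and was tested against 0 with limma 3.58.1 in R 4.3.3, with a trend over mean log2 reads and Benjamini-Hochberg adjustment. Each SE is the moderated SE of limma, which pools the spread over elements or loci of similar depth. Differences per replicate block the replicate, since RNA and DNA of a replicate come from 1 pool of cells per the labels. The deviations of RNA and DNA libraries of the same number correlated at -0.023. Replicates differed by more than sampling noise, with a chi-square per degree of freedom of 2.02 and 2.09 for RNA and 1.18 and 1.16 for DNA (pAPOBEC3F and pMYC). Figures and tables were made with Python 3.11.15, numpy 2.4.6, pandas 2.3.3 and matplotlib 3.10.9.

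Named elements were the 12 largest called differences each way with at least 20 DNA reads per column and 1 sign in both replicates, 1 per locus, the 4 largest called rank shifts each way, the 5 called loci whose orientations differed most, and the 5 highest elements. TRE6_HRHR0016.fwd was named after its values were seen. The members, lists and tests were chosen with earlier results of these data known. Classes were described by counts and medians.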

Additional observations from a re-analysis of the deposited data

Results flagged for a closer look

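The limma test of fwd minus rev called 121 of 945 loci (12.8%), and the 5 that differed most between orientations are given here, so that their being called follows from the choice. The values were -1.93 at KNGAT0110, 1.92 at KSUAT0147, 1.91 at KUUAE0093, 1.66 at TRE5GCLR0122 and 1.55 at TRE5GCCC0038, with adjusted p-values of 0.00135, 0.00211, 0.00213, 0.0217 and 0.0408. Both replicates had the same sign at all 5. For KNGAT0110.rev, KSUAT0147.fwd and KUUAE0093.fwd, pMYC of set 1 lay nearer pAPOBEC3F than pMYC of set 2 did. The part that the measurement of pMYC in set 2 has in these values was not tested.

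For 11 of the 30 elements named for their difference, rank shift or level, the promoter difference, pAPOBEC3F minus pMYC, differed from the enhancer difference of the same plasmids by the limma test of that gap, which called 300 of all 2268 elements (13.2%). Most of the 30 were chosen for a large promoter difference, which is part of the gap. The gap was above 0 in KSSAT0026.fwd (1.86), KSUAT0051.rev (1.67), TRE5SPNN0002.rev (1.16), RSV.fwd (0.93) and TRE5GCLR0170.fwd (0.47). It was below 0 in TRE5SPNN0001.fwd (-1.94), TRE5GCCC0081.rev (-1.27), 54773.rev (-1.19), KUUAT0109.fwd (-1.18), KNGUT0084.fwd (-0.94) and KNGAE0099.fwd (-0.87). Adjusted limma p-values ran from 3.77e-04 for KSUAT0051.rev to 0.0461 for KNGUT0084.fwd.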

How the results depend on the processing

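The 608 higher and 467 lower elements became 791 and 287 on the deposited scale, 134 and 1477 in reads of the shared libraries, and 805 and 137 with the zero at the elements named by a number alone. With both tables scaled to the same spread they were 350 and 369, with 1 element per locus 348 and 289 of 1334, at an adjusted p under 0.01 505 and 293, and with at least 2-fold 39 and 13. With 2 reads added they were 616 and 492, and a minimum of 20 DNA reads removed 0 elements. Without the replicate block they were 605 and 387, and 140 in place of 121 loci depended on orientation (107 with 2 reads added), so the block moved no count by over 1.5 times. With 1 library left out, higher calls ranged from 405 to 768 and lower calls from 174 to 702. Such a fit takes its residual spread from the pair of libraries that remains, RNA or DNA. The correlation of pAPOBEC3F with pMYC was 0.960 in each single replicate, against 0.967. A count test with edgeR was planned and was not run, because the columns did not pass a check that takes the smallest value as the start of the step. Of 396 values of 34 named called elements under 12 alternatives, 360 kept direction and call, 29 kept direction only and 7 turned: in reads of the shared libraries, KSSAT0004.rev (-0.03), KSSAT0024.rev (-0.08) and TRE5GCLR0170.fwd (-0.17), and, scaled to the same spread, KSSAT0004.rev (-0.54), TRE5GCLR0170.fwd (-0.60), KSSAT0024.rev (-0.51) and RSV.fwd (-0.20). As percentile ranks, class medians turned for KUUAE (-0.73 points), TRE5GCLR (-0.58), KSUUT (0.50) and TRE5NGCC (0.29), and KSSAT was at 0. The cause of these changes was not tested. Depth limits the large falls as a group: the 13 elements lower by at least 2-fold had a median of 68 RNA reads under pAPOBEC3F. The 39 elements higher by at least 2-fold had medians of 1023 under pAPOBEC3F and 693 under pMYC, against 568 and 860 over all elements. Single rises rested on few reads, and the fewest RNA reads behind a higher call were 11 under pMYC.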
